A study of Mus musculus with 20 samples.

Results

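Lymphatic vessel genes were followed in the diaphragm of mice that had received asbestos fibers or carbon nanotubes in the pleural cavity. The members were 8 named genes, Lyve1, Prox1, Flt4, Pdpn, Vegfc, Figf (the older symbol of Vegfd), Nrp2, and Ccl21a, and they were found by gene symbol among the 55681 noncontrol probes of the array. There were 9 probes for 7 of the 8 genes, all of which were tested, and none carried the symbol Ccl21a. Each of the 20 arrays held RNA of 1 female C57Bl/6 mouse, taken from the part of its diaphragm that had been frozen, and the 5 groups had 4 mice each, killed 12 weeks after a single 100 μL injection given at 8 weeks of age. The control group received the vehicle, saline with 0.5% bovine serum albumin. LFA (amosite asbestos enriched for long fibers) and SFA (the same amosite shortened by grinding) were given at 25 μg per mouse. NTL and NTS (long and short carbon nanotubes, called LNT and SNT in the study) were given at 5 μg per mouse, so that asbestos and nanotubes differed in dose as well as in material. Values are log2 signals relative to the 75th percentile of the array, and a value of a probe can be compared between mice but not with that of another probe.

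Lymphatic capillaries take up fluid, cells, and particles from tissues, and those of the diaphragm open toward the body cavities and drain them. Vegfc and Figf encode growth factors that bind the receptor tyrosine kinase Flt4 on lymphatic endothelium, with Nrp2 as a coreceptor. Prox1 encodes the transcription factor that sets and holds lymphatic identity, Lyve1 a receptor for hyaluronan, Pdpn the membrane glycoprotein podoplanin, and Ccl21a a chemokine that draws cells bearing Ccr7 into the vessels. Lyve1 is also known from resident macrophages and liver sinusoids, Pdpn from mesothelium, fibroblasts, and some macrophages, and Nrp2 from veins, nerves, and myeloid cells.

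Stretches of the probe sequences are shown to place the probes on their transcripts, written 5′ to 3′ from the array files with positions in NCBI37. The Pdpn upstream probe spans an intron at chr4:142858329-142859146 on the minus strand. It holds an open reading frame whose last codon, in capitals, is a stop codon, and it is given whole.
Pdpn upstream probe: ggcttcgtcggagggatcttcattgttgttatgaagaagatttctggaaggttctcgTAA
The Pdpn downstream probe lies at chr4:142857339-142857398, nearer the 3′ end of the same transcript, and Nrp2 has a probe for transcript variant 1 at chr1:62865129-62865188 and another for variant 5 at chr1:62843298-62843357. Of these 3 probes the last 30 bases are given, with the AATAAA polyadenylation motif in capitals where it occurs.
Pdpn downstream probe: catcttttcaAATAAAacctgattgtgtcc
Nrp2 variant 1 probe: tactgtgattcttcaatgtaaaaAATAAAa
Nrp2 variant 5 probe: ggtacctagacaaatagagaccattgggaa
The last 30 bases of the Lyve1 probe (chr7:117994171-117994230, minus strand) and the Prox1 probe (chr1:191945785-191945844, minus strand) hold no such motif.
Lyve1: tagctctcattcttttccagcaagaagaac
Prox1: acgggtgcagtaaacagcactgttcactct
The other members have 1 probe each, Flt4 at chr11:49465646-49465705, Vegfc at chr8:55271533-55271592, and Figf at chrX:160840395-160840454, the last of these printed on 10 spots per array. Exon and UTR annotation of this build was not used here.

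The share of spots well above background was 53.0% to 68.1% per array, and 0 spots were saturated. Of the 9 member probes, 7 passed this mark on each of the 20 arrays, the Prox1 probe on 19, and the Pdpn upstream probe on 18. The tissue was muscle, with Acta1 at 9.79 ± 0.10 (SD, n = 4) in control on the log2 scale and all 10 skeletal muscle markers well above background on every array. The summed level of 10 liver markers, in units of the array's 75th percentile, ran from 64.8 to 7237 over the arrays and was 106 to 601 in control, 273 to 731 in NTL, 173 to 4438 in LFA, and up to 3496 in SFA and 7237 in NTS. A 5′ to 3′ index, the mean log2 difference between upstream and downstream probes of 1150 transcripts centered over the arrays, ran from −0.56 to 0.47. Its medians were 0.23 in control, −0.16 in SFA, −0.12 in LFA, 0.39 in NTS, and 0.04 in NTL. In bulk RNA of this kind, fewer cells of a type and less RNA per cell cannot be told apart.

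Lyve1, the hyaluronan receptor, was higher in NTL than in NTS mice, and its level in LFA stood above control by more than 2-fold without passing the test. In control the 4 mice had Lyve1 levels of 2.38, 2.93, 2.15, and 2.34. The levels in LFA were 3.24, 3.42, 4.10, and 3.92, and all 4 LFA mice lay above all 4 control mice. In NTL they were 3.28, 4.14, 2.77, and 3.25, with the lowest mouse inside the control range. The short-fiber groups reached 3.45, 2.34, 3.16, and 2.31 in SFA and 2.40, 1.95, 1.69, and 2.62 in NTS, and all 4 NTL mice lay above all 4 NTS mice. LFA exceeded control by 1.22 ± 0.34 (log2 change ± SE, 95% interval 0.50 to 1.93, 2.33-fold), with an adjusted p of 0.0519 from limma over all tested probes, which missed the threshold of 0.05. NTL exceeded NTS by 1.19 ± 0.34 (0.48 to 1.91, 2.29-fold, adjusted p = 0.0363 from limma) and was called, a call being an absolute log2 change of at least 1 with an adjusted p under 0.05. NTL minus control was 0.91 ± 0.34 (0.19 to 1.62, adjusted p = 0.114) and LFA minus SFA was 0.85 ± 0.34 (0.14 to 1.57, adjusted p = 0.316). Ordered by mean, Lyve1 was at 2.17 in NTS, 2.45 in control, 2.82 in SFA, 3.36 in NTL, and 3.67 in LFA. The tested neighbors in this order, NTS and control, control and SFA, and NTL and LFA, did not differ beyond their spread, and SFA and NTL were not compared. The calls changed with the processing. LFA against control was called under 10 of the alternatives, and NTL against NTS was not called with no filter on dim probes (adjusted p = 0.0530), with the 2 groups fitted alone (0.0985), with the slide as a block (0.104), without NTS replicates 3 and 4 (0.0684), or when any 1 of NTS replicates 2 and 3 and NTL replicates 1, 2, and 4 was left out (adjusted p = 0.0717 to 0.121). NTL against NTS was also not called with the replicate number as a block (adjusted p = 0.0638) or with the 5′ to 3′ index as a covariate (0.90, under 2-fold).

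Pdpn was higher in NTL than in control and NTS by its downstream probe. The levels of this probe in control were 3.72, 4.59, 3.36, and 3.41, and in NTS they were 3.80, 3.29, 2.96, and 3.08. In NTL they were 4.90, 5.22, 4.39, and 4.82, above every NTS mouse and above all control mice but the highest. The LFA mice had 3.94, 4.83, 4.69, and 5.01 and the SFA mice 4.17, 3.35, 3.49, and 3.73, so that 3 of 4 LFA mice were above all SFA mice. The downstream probe was called in NTL minus control, with 1.06 ± 0.32 (0.40 to 1.72, 2.09-fold, adjusted p = 0.0489 from limma), and in NTL minus NTS, with 1.55 ± 0.32 (0.89 to 2.21, 2.93-fold, adjusted p = 0.00471). LFA minus control was 0.85 ± 0.32 (0.18 to 1.51, adjusted p = 0.127) and LFA minus SFA 0.93 ± 0.32 (0.27 to 1.59, adjusted p = 0.224), and neither was called. The call against control was lost when any 1 of 14 single arrays was left out (adjusted p = 0.0501 to 0.119), with no filter (adjusted p = 0.0763), with the 2 groups fitted alone (0.0989), when the slide was a block (0.0981), with the mean of both Pdpn probes (0.173), and under the test of the study's methods. This call was also lost with the replicate number as a block (adjusted p = 0.0617) and with the 5′ to 3′ index as a covariate (0.99, under 2-fold). That against NTS was lost only with the mean of both Pdpn probes (1.38 ± 0.51, adjusted p = 0.0868), among the alternatives run.

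**Figure D1:**
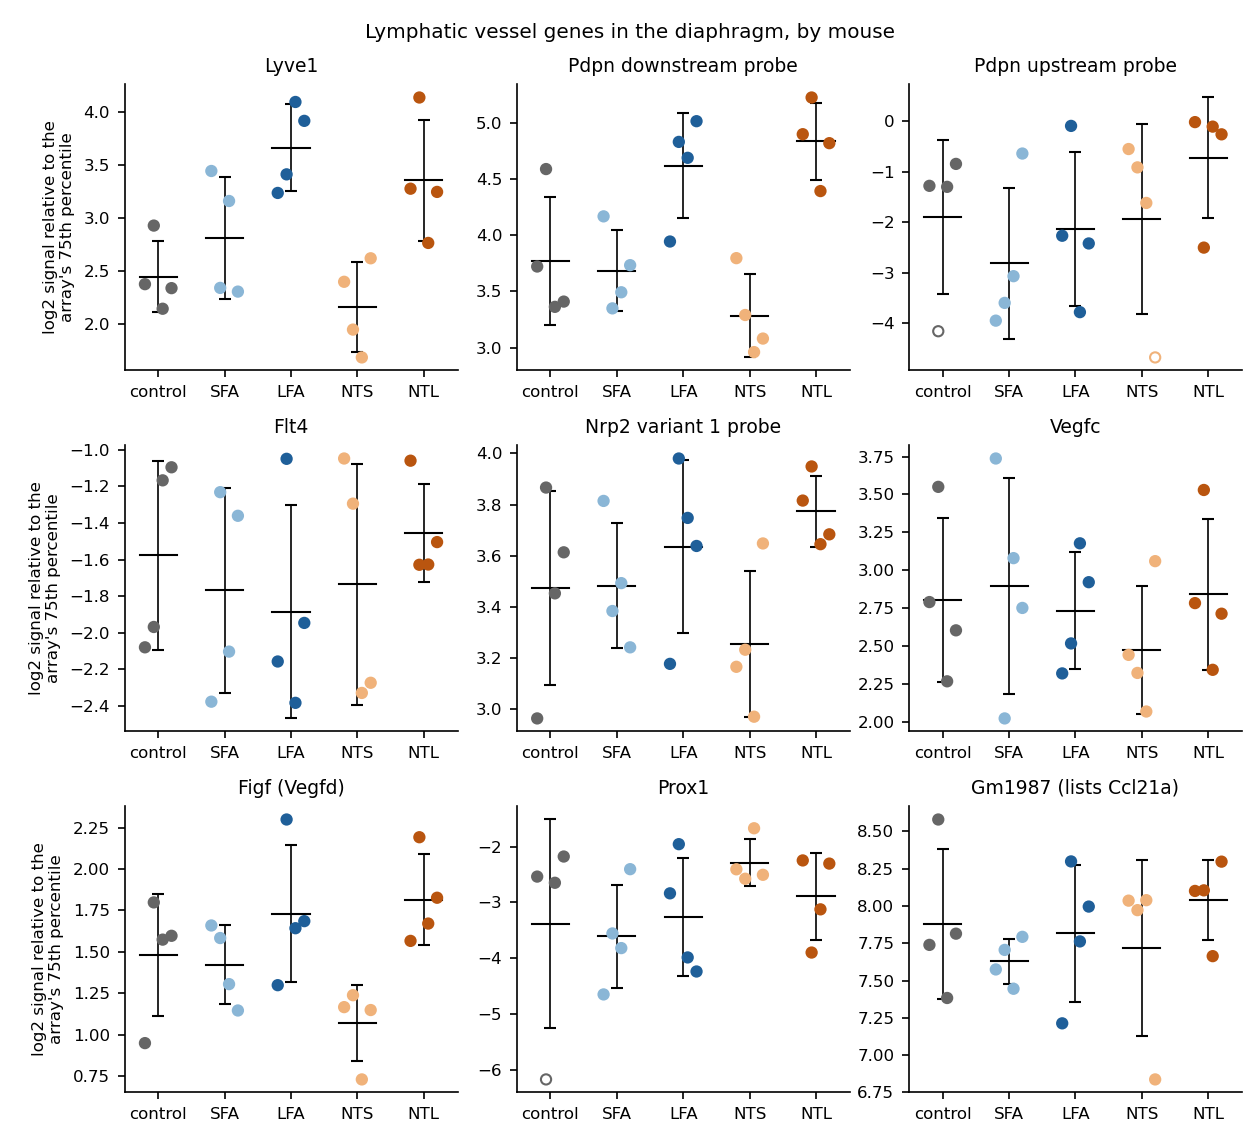
Log2 signal relative to the array's 75th percentile (vertical axis, a different range in each panel) for each of the 20 mice by group, with a point per mouse, a bar at the mean, and whiskers of 1 SD. Open points were not well above background, and Lyve1 in LFA (3.24 to 4.10) and the Pdpn downstream probe in NTL (4.39 to 5.22) lie above all control mice and above all but 1, respectively, while the other probes overlap between control and long-fiber groups.

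The upstream Pdpn probe did not show the same pattern, and its values were spread widely within every group. Its levels were −1.28, −4.16, −1.30, and −0.85 in control, −0.55, −0.92, −1.62, and −4.68 in NTS, and −0.02, −2.50, −0.11, and −0.26 in NTL, and they ran from −3.95 to −0.64 in SFA and from −3.78 to −0.09 in LFA. The lowest mouse of control and of NTS was not well above background, and the groups overlapped. Its SD within groups was 1.19 to 1.88, against 0.34 to 0.57 for the downstream probe. NTL minus control was 1.17 ± 1.0 (−0.93 to 3.27) and NTL minus NTS 1.22 ± 1.0 (−0.88 to 3.32), intervals that hold the downstream values as well as 0. A change of the coding end of Pdpn was not detectable at this spread.

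Prox1, the lymphatic transcription factor, was dim and scattered, and no difference was detectable at this spread. The levels were −2.54, −6.18, −2.65, and −2.18 in control, −2.84, −1.95, −3.99, and −4.24 in LFA, and −2.25, −3.90, −3.12, and −2.30 in NTL. SFA had −4.65, −3.56, −3.82, and −2.40, and NTS had −2.41, −2.58, −1.67, and −2.50. Control replicate 2, at −6.18, was the array on which Prox1 was not well above background, and every pair of groups overlapped. LFA minus control was 0.13 ± 0.74 (−1.42 to 1.68) and NTL minus control 0.49 ± 0.74 (−1.06 to 2.04), so that a 2-fold change in either direction lay inside both intervals.

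Flt4, the receptor for the lymphatic growth factors, did not pass the test in any comparison. Its levels ran from −2.08 to −1.10 in control, −2.38 to −1.23 in SFA, −2.38 to −1.05 in LFA, −2.33 to −1.05 in NTS, and −1.63 to −1.06 in NTL, and the groups overlapped throughout. LFA minus control was −0.31 ± 0.38 (−1.10 to 0.48) and NTL minus control 0.12 ± 0.38 (−0.67 to 0.91). A 2-fold rise lay outside both intervals, while a 2-fold fall lay inside that of LFA.

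Nrp2, the coreceptor, was measured at the ends of 2 sets of transcripts. The variant 1 probe had levels of 2.96, 3.87, 3.45, and 3.61 in control, 3.18, 3.98, 3.75, and 3.64 in LFA, and 3.82, 3.95, 3.65, and 3.68 in NTL. The 4 NTL mice were close together (SD 0.14) but lay inside the control range except for the highest, and SFA ran from 3.24 to 3.81 and NTS from 2.97 to 3.65. LFA minus control was 0.16 ± 0.24 (−0.34 to 0.67) and NTL minus control 0.30 ± 0.24 (−0.21 to 0.80). NTL minus NTS was 0.52 ± 0.24 (0.01 to 1.02, adjusted p = 0.191 from limma) for the variant 1 probe and 0.27 ± 0.24 (−0.23 to 0.77) for the variant 5 probe. Neither probe was called in any comparison.

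The ligands were not called in any comparison. Vegfc levels were 2.79, 3.55, 2.27, and 2.61 in control, 2.32, 2.52, 3.18, and 2.92 in LFA, and 2.78, 3.53, 2.35, and 2.71 in NTL, and ran from 2.02 to 3.74 in SFA and from 2.07 to 3.06 in NTS. LFA minus control was −0.07 ± 0.37 (−0.85 to 0.71) and NTL minus control 0.04 ± 0.37 (−0.74 to 0.82), and these intervals leave out a 2-fold change in either direction. Figf levels were 0.95, 1.80, 1.57, and 1.60 in control and 1.57, 2.19, 1.67, and 1.83 in NTL, with overlap, and ran from 1.15 to 1.66 in SFA and from 1.30 to 2.30 in LFA. In NTS they were 1.17, 1.24, 0.73, and 1.15, all below the 4 NTL mice. NTL minus NTS was 0.74 ± 0.25 (0.21 to 1.27, adjusted p = 0.0767 from limma) for Figf and was not called, and NTL minus control was 0.33 ± 0.25 (−0.20 to 0.87).

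**Figure D2:**
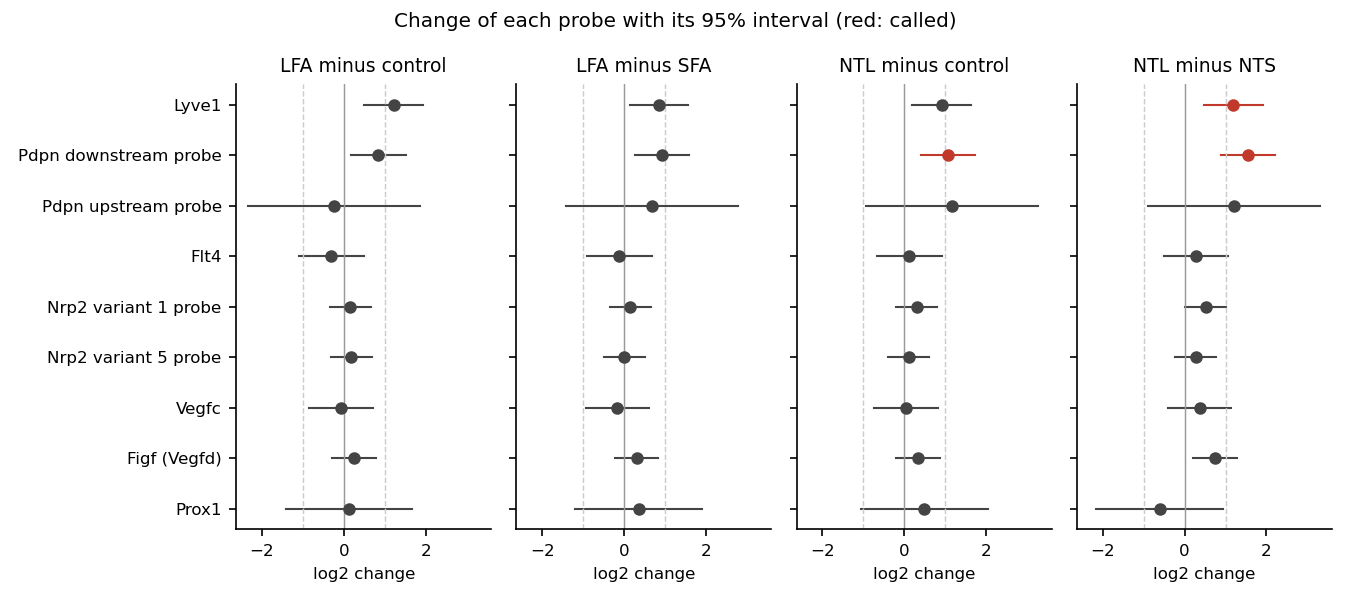
Log2 change (horizontal axis) of the 9 member probes in 4 comparisons, with points for the limma estimates, lines for 95% intervals, and dashed lines at a 2-fold change. The red points are the called changes, the Pdpn downstream probe in NTL minus control (1.06) and NTL minus NTS (1.55) and Lyve1 in NTL minus NTS (1.19), and the widest intervals belong to the Pdpn upstream and Prox1 probes.

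Counted over the 7 genes, each by its brightest probe, 0 were called by limma in LFA minus control, where 4.24% of 25502 features were called. An unadjusted p under 0.05 was found there for 2 of 7, Lyve1 and Pdpn, and for 24.1% of all features, so that the members' share was near the background. In NTL minus control 1 of 7 was called, against 7.39% of all features, and in NTL minus NTS 2 of 7, against 8.23%. The unadjusted threshold was passed by 2 of 7 in NTL minus control (Lyve1 and Pdpn, against 24.7% of all features) and by 4 of 7 in NTL minus NTS (with Nrp2 and Figf, against 26%). LFA minus SFA gave 0 calls by limma, with 1.56% of all features called, and 2 unadjusted p-values under 0.05, again Lyve1 and Pdpn, against 13.2% of all features. SFA minus control, NTS minus control, LFA minus NTL, and the difference of the length effects between asbestos and nanotubes gave 0 member calls by limma and 0 members with an unadjusted p under 0.05, and 0% of all features was called in each, with 2.18%, 3.48%, 1.78%, and 3.49% of all features under the unadjusted threshold. The groups did not overlap for 1 of 7 members in LFA and control (background 16.2%), 0 of 7 in NTL and control (20.9%), 0 of 7 in LFA and SFA (9.37%), and 3 of 7 in NTL and NTS (17.4%), the last being Lyve1, Pdpn, and Figf. The median change of the 7 genes was 0.16 in LFA minus control, 0.33 in NTL minus control, and 0.52 in NTL minus NTS, beside −0.19, −0.22, and −0.22 over all features. The 4 comparisons with control share the same control mice.

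The length effect of asbestos minus that of nanotubes was −0.34 ± 0.48 (−1.35 to 0.67) for Lyve1 and −0.62 ± 0.45 (−1.55 to 0.32) for the Pdpn downstream probe. LFA minus NTL was 0.31 ± 0.34 (−0.41 to 1.02) for Lyve1 and −0.21 ± 0.32 (−0.88 to 0.45) for Pdpn. No difference between the fiber types passed the test, at doses of 25 and 5 μg.

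The arrays lay on 3 slides, each scanned as a set, and the groups were spread unevenly over them. Within slides, LFA minus control for Lyve1 was 1.67 on slide 1, 0.58 on slide 2, and 1.27 on slide 3, with 1 or 2 mice per group on each. For the Pdpn downstream probe it was 1.44, −0.21, and 1.46, so that the direction turned on slide 2, which held 1 LFA and 2 control mice. NTL minus control was 0.62 on slide 2 and 1.24 on slide 3 for Lyve1, and 0.74 and 1.45 for Pdpn. NTL and NTS met only on slide 2, with 1 NTL and 2 NTS mice, where Lyve1 differed by 1.10 and Pdpn by 1.35. The other NTL arrays lay on slide 3 and the other NTS arrays on slide 1, so NTL minus NTS was mostly a comparison between slides.

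RNA integrity was approximated by the 5′ to 3′ index, and several members moved with it. The difference between the upstream and downstream Pdpn probes followed the index with Pearson's r = 0.91 and Spearman's rho = 0.86 over 20 arrays (both permutation p = 1e-05, the smallest that the permutations can give, adjusted p = 0.0001 over 10 relations). The r was 0.88 without the 2 arrays farthest from the median index and 0.98, 0.95, and 0.87 on slides 1, 2, and 3. Prox1 rose with the index at r = 0.76 and rho = 0.77 (permutation p = 3e-05 and 0.00014, adjusted p = 0.00015 and 0.0007), with r = 0.71 without those 2 arrays and 0.77, 0.82, and 0.89 on the slides. Lyve1 ran the other way at r = −0.73 and rho = −0.72 (permutation p = 0.0004 and 0.00063, adjusted p = 0.0008 and 0.0021), with r = −0.67 without the 2 arrays and −0.82, −0.69, and −0.70 on the slides. With each group's mean removed, r was 0.92 for the Pdpn difference, 0.78 for Prox1, and −0.79 for Lyve1. Vegfc also fell with the index (r = −0.73 and rho = −0.66, permutation p = 0.00032 and 0.00208, adjusted p = 0.0008 and 0.00436), and of the 10 relations those of the Pdpn downstream and Nrp2 variant 5 probes had an adjusted permutation p above 0.05. Slide 1 held 5 arrays, too few for its value to be more than a description. With the index as a covariate, chosen after the data had been seen, Lyve1 was 0.90 ± 0.24 in LFA minus control (adjusted p = 0.0286 from limma) and 0.90 ± 0.24 in NTL minus NTS (adjusted p = 0.0163), both under the 2-fold minimum. In the same fit the Pdpn downstream probe was 0.99 ± 0.30 in NTL minus control (adjusted p = 0.0310), also under the 2-fold minimum and so not called. In NTL minus NTS it was 1.42 ± 0.30 (adjusted p = 0.00521) and stayed called. The part of RNA integrity in the group differences was not tested beyond this fit.

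**Figure D3:**
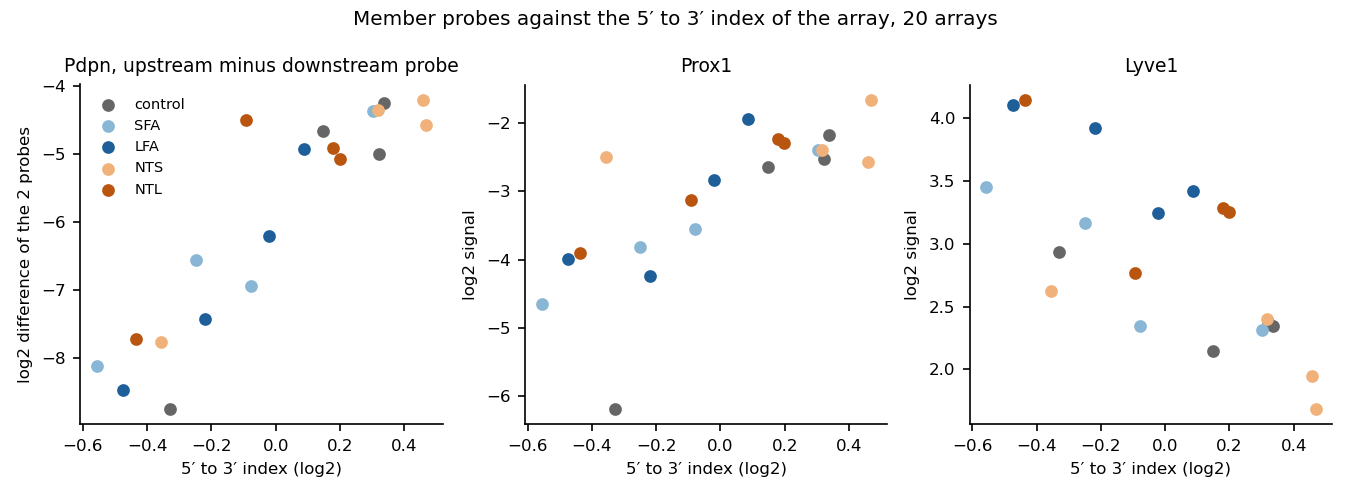
The log2 difference of the Pdpn probes and the log2 signals of Prox1 and Lyve1 (vertical axes) against the 5′ to 3′ index (horizontal axis, log2), with a point per array colored by group. The Pdpn difference and Prox1 rise with the index (r = 0.91 and 0.76) and Lyve1 falls (r = −0.73).

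Ccl21a was not measured under its own name. The gene has near-identical copies, and the probe named Gm1987 (chr4:42232117-42232176) lists the Ccl21a transcript together with copies, while the probe named Gm13304 (chr4:41775274-41775333) lists other copies, so that neither can be assigned to a single gene. The Gm1987 probe had levels of 7.74, 8.58, 7.38, and 7.81 in control, 7.21, 8.30, 7.76, and 8.00 in LFA, and 8.10, 8.11, 7.66, and 8.30 in NTL, with overlap. LFA minus control was −0.06 ± 0.31 (−0.72 to 0.60) and NTL minus control 0.16 ± 0.31 (−0.50 to 0.82), and for Gm13304 they were 0.00 ± 0.31 (−0.65 to 0.65) and 0.25 ± 0.31 (−0.40 to 0.91). Neither probe was called in any comparison.

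Among partners of the lymphatic chemokine and of podoplanin, Cd44 and Lcp2 were higher and Ackr4 lower in LFA and NTL than in control, and Ccr7 was higher in NTL. Of 10 tested partners, 2 were higher and 1 lower in LFA minus control, 3 higher and 1 lower in NTL minus control, and 4 higher in NTL minus NTS. Of all features, 4.24%, 7.39%, and 8.23% were called in these comparisons, which is the background for this list and those that follow. Cd44, a hyaluronan receptor on leukocytes and stroma that also binds podoplanin, rose by 1.78 ± 0.32 in LFA and 1.83 ± 0.32 in NTL against control (adjusted p = 0.00572 and 0.00217 from limma). Ccr7, the receptor for Ccl19 and Ccl21, rose by 1.77 ± 0.43 in NTL against control (adjusted p = 0.0174) and by 2.01 ± 0.43 against NTS (adjusted p = 0.00638), and stood at 1.22 in LFA minus control (adjusted p = 0.106). Ackr4, a scavenger of these chemokines, fell by 1.21 in LFA and by 1.59 in NTL against control (adjusted p = 0.0444 and 0.00611). Lcp2, an adaptor protein of leukocytes, rose by 1.70 in LFA and 1.58 in NTL against control (adjusted p = 0.0352 and 0.0321), with 1 control and 1 NTS array not well above background. Syk, a kinase downstream of the podoplanin receptor Clec1b and of other immune receptors, was called in NTL minus NTS (1.77 ± 0.38, adjusted p = 0.00747). The NTL minus NTS calls of Syk and Ccr7 were lost with the slide as a block (adjusted p = 0.122 and 0.0793 from limma). The Ccr7 call in NTL against control was lost under 4 of 31 alternatives, the slide as a block among them. The Ackr4 and Lcp2 calls in LFA were lost under 16 of 31 and 8 of 30 alternatives, and the Lcp2 call in NTL against control under 9 of 30, among them normexp (0.49), the slide as a block, and any 1 NTL array left out. The other partners, among them Ccl19 at 0.95 in NTL minus control (adjusted p = 0.0361, under 2-fold) and Clec1b at 0.01, were not called against control.

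Among 12 other ligands and proteins that process them, Vegfb was lower in both long-fiber groups and Ccbe1 was higher in NTL. Vegfb, a growth factor that binds Flt1, fell by 1.38 in LFA and by 1.38 in NTL against control (both SE 0.29, adjusted p = 0.0133 and 0.00756 from limma). Its level was 4.89 ± 0.13 in control, 3.50 ± 0.24 in LFA, and 3.51 ± 0.37 in NTL (SD, n = 4). Ccbe1, a secreted protein that aids the proteolytic activation of Vegfc, was at 0.32 in control, 1.16 in LFA, 1.72 in NTL, and −0.20 in NTS. NTL exceeded control by 1.41 ± 0.41 (adjusted p = 0.0464), a call that held under 12 of 31 alternatives, and NTS by 1.92 ± 0.41 (adjusted p = 0.00699), which held under 28. The median change of the list was −0.50 in LFA and −0.20 in NTL against control. Of 12 other receptors, among them Kdr, Nrp1, and Tek, 0 were called by limma in any comparison with control. An unadjusted p under 0.05 was found for 1 in LFA and 1 in NTL, against 24.1% and 24.7% of all features.

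Of 9 transcription factors, Gata2, which acts in lymphatic valves and in blood cell progenitors, was called, falling by 1.06 in NTL against control (SE 0.24, adjusted p = 0.0134 from limma). It stood at −0.91 in LFA minus control (adjusted p = 0.0456, under 2-fold). Tbx1, a factor of lymphatic and pharyngeal development, was at −1.09 ± 0.34 in LFA and −1.14 ± 0.34 in NTL minus control (adjusted p = 0.0754 and 0.0502). Hhex, a factor of endothelial and liver development, was at 1.43 ± 0.73 and 0.85 ± 0.73 (adjusted p = 0.249 and 0.530), and neither was called. Foxc2, a factor of lymphatic valves, was at 0.17 and 0.10 in LFA and NTL minus control, and Nr2f2 at 0.12 and −0.01. Of 10 further markers, Mmrn1 was not bright enough to be tested, and Stab1, a scavenger receptor of sinusoids, lymphatics, and macrophages, was called in NTL minus NTS (1.16 ± 0.24, adjusted p = 0.00612). The Stab1 call was lost with the slide as a block (adjusted p = 0.0635 from limma). The median change of these 9 tested markers was 0.12 in LFA and 0.11 in NTL against control. Of 10 vascular endothelial markers 0 were called by limma in any comparison. In LFA and NTL against control, 1 each had an unadjusted p under 0.05 (24.1% and 24.7% of all features), with medians of −0.31 and −0.23.

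Of 8 organizers of lymphoid tissue, Cxcl13 and Tnfsf11 were higher in both long-fiber groups. Cxcl13, the chemokine that attracts B cells, rose by 1.99 ± 0.50 in LFA and 2.08 ± 0.50 in NTL against control (adjusted p = 0.0350 and 0.0179 from limma) and by 3.09 ± 0.50 in NTL against NTS (adjusted p = 0.000782). Its calls in LFA and NTL against control held under 23 and 27 of 31 alternatives. Tnfsf11, a cytokine of lymphoid tissue development and of bone, was not well above background on any of the 4 control arrays. Its mean level was 3.45-fold in LFA and 3.66-fold in NTL over a floor set by the dimmest signal well above background on the control arrays. It was called in LFA and NTL against control (adjusted p = 0.0146 and 0.00680 from limma). Both calls were lost with normexp (log2 changes of 0.65 and 0.58, adjusted p = 0.120 and 0.135), and that in LFA without LFA replicate 4. Ltb, Lta, and Ltbr were not called, nor were the 8 B and T cell markers, whose median change was 0.54 in LFA and 0.79 in NTL against control.

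**Figure D4:**
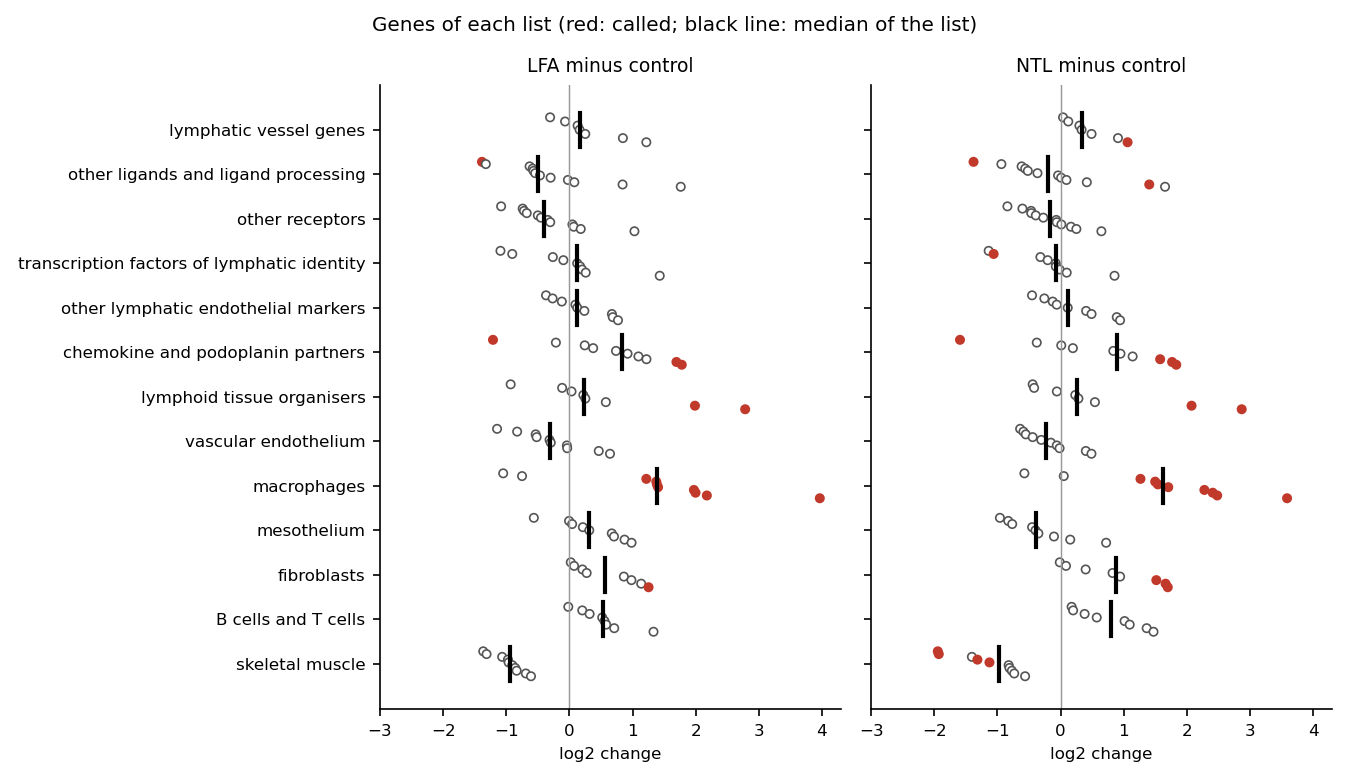
Log2 change against control (horizontal axis) of every tested gene of 13 gene lists in LFA and NTL, with a point per gene, red where called, and a black line at the median of the list. The lymphatic vessel genes have medians of 0.16 and 0.33, the macrophage markers 1.40 and 1.62, and the skeletal muscle markers −0.93 and −0.97.

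Cell types that are known to share Lyve1 and Pdpn with lymphatic vessels were measured on the same arrays. Of 10 macrophage markers, 8 were called higher in LFA and 8 in NTL against control (4.24% and 7.39% of all features called), 5 in LFA against SFA (1.56%), and 8 in NTL against NTS (8.23%). The 2 with the largest changes were Marco (3.97 ± 0.48 in LFA and 3.59 ± 0.48 in NTL) and Adgre1 (2.18 ± 0.40 and 2.48 ± 0.40). The Timd4 calls were lost under 18, 20, and 18 of 31 alternatives in LFA minus control, NTL minus control, and NTL minus NTS. In LFA minus SFA, the Cd68 call was lost under 7 and the Folr2 call under 4 of 31. The Marco calls were lost under 0 of 31 in each of these comparisons. Itgam and Cd163 were not called. Itgam had lower means in LFA and NTL than in control (4.97 and 5.15, against 5.72). Cd163 was at −3.63 in control, −4.67 in LFA, and −3.57 in NTL, and was well above background on 12 of 20 arrays. The summed level of the macrophage list, in units of the array's 75th percentile, was 104 to 172 in control, 114 to 180 in SFA, 103 to 172 in NTS, 247 to 379 in LFA, and 311 to 418 in NTL, without overlap between long-fiber groups and the rest. Of 9 mesothelial markers, 0 were called by limma in LFA or NTL against control. An unadjusted p under 0.05 was found for 1 in LFA and 0 in NTL, against 24.1% and 24.7% of all features. Wt1 was called in NTL minus NTS (1.77 ± 0.41, adjusted p = 0.0119 from limma), a call lost under 3 of 31 alternatives, the slide as a block among them. The median change of the list in NTL minus NTS was 0.03. Krt7, Krt8, Krt18, and Upk3b had lower means in NTL than in NTS, and the other markers higher ones. The mesothelial sums were 73.5 to 153 in control, 63.9 to 182 in LFA, 53.6 to 138 in NTS, and 64.4 to 95.2 in NTL. Of 8 fibroblast markers, Col3a1 was called in LFA (1.25 ± 0.32) and Col1a1, Col3a1, and Lum in NTL against control (1.70 ± 0.38, 1.66 ± 0.32, and 1.52 ± 0.35). The Col3a1 call in LFA was lost under 11 of 31 alternatives, among them no filter, the slide as a block, and any 1 control array left out, and that in NTL under 0 of 31. The fibroblast sums were 561 to 1105 in control, 588 to 1105 in LFA, and 729 to 1399 in NTL. Dcn, the brightest of the list, weighs most in these sums and was at 8.86 in control, 8.88 in LFA, and 8.85 in NTL. The median change of the list was 0.57 in LFA and 0.88 in NTL against control.

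Of 5 markers of liver sinusoids, Fcgr2b, which macrophages and B cells also express, was called higher in LFA and NTL against control (3.02 ± 0.54 and 3.25 ± 0.54). Fcgr2b and Fcna were called higher in NTL minus NTS, calls lost under 2 and 8 of 31 alternatives. The Fcna means were 2.69 in NTL and 1.12 in NTS. Clec4g, a lectin of liver and lymph node sinusoids, had group means of −2.45 in control, −0.26 in LFA, 0.65 in NTS, and −1.31 in NTL, and none of its differences was called (SE 1.82). Skeletal muscle markers were lower, with 4 of 10 called in NTL against control (7.39% of all features), led by Tnnt3 (−1.94 ± 0.39) and Pvalb (−1.93 ± 0.44). In LFA 0 were called by limma, and all 10 had an unadjusted p under 0.05, against 24.1% of all features. Of 5 adipocyte markers, Cidec and Adipoq were called lower in NTL (−1.50 ± 0.30 and −1.36 ± 0.41), the latter under 12 of 31 alternatives. The part of these cell types in the Lyve1 and Pdpn differences was not tested.

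Over the 20 arrays, Lyve1 and Pdpn varied together (r = 0.84), as did Nrp2 and Figf (r = 0.87), while Prox1 ran against Lyve1 (r = −0.48), Vegfc (r = −0.68), and Pdpn (r = −0.37), each by the brightest probe. These correlations include the group differences and the shared index and are descriptions of 20 arrays. The genes most like Lyve1 were Il1rl1 (r = 0.97), Slit2 (0.96), and Fanca (0.95), which stood 1.31, 1.38, and 1.20 higher in LFA than in control. Those most like Pdpn were Cmtm7 (0.97), A830007P12Rik (0.96), and Rtn1 (0.96). For Flt4 they were Noc3l (0.88), C130021H21Rik (0.86), and Gm10866 (0.85), and for Prox1 Arl5a (0.91), Osbpl9 (0.90), and Usp9x (0.89). For Nrp2 they were Osbpl7 (0.91), Ocrl (0.89), and Nlrp1a (0.89), for Vegfc Mest (0.95), Prss23 (0.94), and Ftsjd2 (0.94), and for Figf AI605517 (0.90), Acvr1b (0.90), and Cic (0.90).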

How the data were processed

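RNA was extracted with TRIzol, labeled with Cy3, and hybridized by the authors to 60K mouse arrays with 1 color, and the arrays were read with Agilent Feature Extraction 10.7.3.1. The deposited value of a spot is a background-subtracted intensity. The authors also deposited a table of normalized log2 values with a mean per group and no replicates, which served as an alternative without a test.

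Outlier spots, 92 to 204 of 59305 per array, were left out, the spots of a probe were averaged, and log2 intensities were set relative to the 75th percentile of the array's probes, which ran from 250 to 839. The 36917 probes well above background on at least 4 of 20 arrays were tested. A single linear model with 5 group means was fitted with limma 3.58.1 in R 4.3.3, and calls required a 2-fold change and a Benjamini-Hochberg adjusted p under 0.05 over all probes tested. A gene was represented by its brightest probe. The number of arrays limits the precision. The 20 RNA samples came from different mice, and correlations between arrays (0.865 to 0.986) showed no copy. Permutation tests and figures used Python 3.11.15 with scipy 1.17.1. The fit was tested on simulated data with independent noise, changes larger than those of the members, and no effect of slide or index. That test does not cover changes of the size reported here.

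Sequences were copied from the array files. RefSeq names came from a GRCm38.p6 table, whose coordinates were not used. The members, the 15 other gene lists, and the tests were chosen with earlier results of these data known. From each list, the 2 called genes with the largest change and those needed for small counts are named, along with a few named after their values were seen (Kdr, Nrp1, Tek, Tbx1, Hhex, Foxc2, Nr2f2, Clec1b, Ccl19, Clec4g). The 3 genes most correlated with each member are named. Alternatives covered normalization, background, filter, probe averaging, slide, replicate number, the groups fitted, each array left out, the threshold, and the methods' test. Leaving out NTS replicates 3 and 4, the percentile over spots, and the index covariate were added after the data had been seen.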

Additional observations from a re-analysis of the deposited data

Results flagged for a closer look

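Among 55 sets of 4 mice (11 probes in 5 groups), 5 had a mouse whose gap to the nearest other divided by the range of the set was over the 95% critical value of Dixon's test, which chance passes in about 1 of 20 sets. The Pdpn upstream probe was at −4.16 in control replicate 2, against −1.30 to −0.85 in the other controls. It was at −2.50 in NTL replicate 2, against −0.26 to −0.02. Prox1 was at −6.18 in control replicate 2, against −2.65 to −2.18. The probes that list Ccl21 copies were low in NTS replicate 4, Gm13304 at 7.05 against 8.18 to 8.32 and Gm1987 at 6.84 against 7.97 to 8.04. The 5′ to 3′ index of these arrays was −0.33 in control replicate 2, −0.44 in NTL replicate 2, and −0.36 in NTS replicate 4, each the lowest of its group.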

How the results depend on the processing

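The number of member genes called in SFA or NTS minus control, LFA minus SFA, LFA minus NTL, and the difference of length effects was 0 under every alternative run. In LFA minus control it went from 0 to 1, Lyve1, with quantile normalization, normexp, probes well above background on all arrays, the mean of a gene's probes, the percentile over spots, and NTS replicates 3 and 4 left out, and was 0 to 1 with single arrays left out. In NTL minus control it was 2 with quantile normalization (Lyve1 and Pdpn) and 0 with no filter, slide as a block, the replicate block, only the groups compared, the mean of probes, the index covariate, and the methods' test, and 0 to 1 with single arrays left out. In NTL minus NTS it fell from 2 to 1 with no filter, slide as a block, the replicate block, only the groups compared, the mean of probes, NTS replicates 3 and 4 left out, and the index covariate, and was 1 to 2 with single arrays left out. The call that remained was Pdpn, except with the mean of probes, where it was Lyve1. Without a minimum fold change the counts of all comparisons stayed within 1.5 times.

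The deviations of same-numbered mice of different groups correlated with r from −0.68 to 0.69 (median −0.09) over 40 pairs, 14 of them over 0.1. Mice of different numbers were not compared in this way, so the check cannot settle whether the numbers pair the samples. The replicate block left the log2 changes as they were and gave adjusted p = 0.0617 for Pdpn in NTL minus control and 0.0638 for Lyve1 in NTL minus NTS.

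Of the 56 changes (7 genes in 8 comparisons), 23 changed sign under an alternative, and none of these was a called change. With the index covariate, SFA minus control became −0.14 for Nrp2, −0.22 for Vegfc, 0.062 for Flt4, and 0.49 for Prox1, NTL minus control −0.15 for Vegfc, and NTL minus NTS 0.093 for Prox1. With the percentile over spots, Nrp2 in SFA minus control became −0.0091. Without NTS replicates 3 and 4, Flt4 became −0.28 in NTL minus NTS, 0.17 in the difference of length effects, and 0.41 in NTS minus control. With normexp, Prox1 became −0.012 in LFA minus SFA, −0.15 in NTL minus control, and −0.26 in LFA minus control, Flt4 −0.049 in NTL minus control, and Vegfc 0.0079 in LFA minus control. With quantile normalization, Pdpn and Prox1 in SFA minus control became 0.00060 and 0.0039. With slide as a block, Flt4 became −0.058 in NTL minus NTS, −0.071 in NTL minus control, 0.13 in LFA minus SFA, and 0.18 in the difference of length effects, and Figf 0.021 in LFA minus NTL.

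With single arrays left out, SFA minus control ranged from −0.25 to 0.19 for Pdpn, −0.37 to 0.013 for Flt4, −0.16 to 0.14 for Nrp2, −0.18 to 0.39 for Vegfc, −0.23 to 0.050 for Figf, and −1.15 to 0.18 for Prox1. LFA minus control ranged from −0.0084 to 0.31 for Nrp2, −0.25 to 0.18 for Vegfc, and −0.80 to 0.53 for Prox1. NTL minus control ranged from −0.045 to 0.28 for Flt4, −0.19 to 0.29 for Vegfc, and −0.44 to 0.89 for Prox1, and NTS minus control from −0.39 to 0.039 for Flt4. LFA minus SFA ranged from −0.39 to 0.063 for Flt4, −0.45 to 0.12 for Vegfc, and −0.080 to 0.75 for Prox1, and LFA minus NTL from −0.36 to 0.010 for Pdpn, −0.25 to 0.015 for Nrp2, −0.27 to 0.12 for Vegfc, and −0.27 to 0.06 for Figf. The cause was not tested.

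At their lowest, Prox1 and the Pdpn upstream probe fell to 0.21 and 0.87 times the dimmest signal well above background on an array. At their highest they reached 9.39 and 41.4 times it, while the other member probes were at least 3.96 times above it. The part of low signal in the spread of Prox1 and the Pdpn upstream probe was not tested. The authors' table, whose column medians ran from −0.17 to 0.21, gave log2 changes that followed those computed here with r over 0.99 across probes, and has no replicates to test.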
